A study of Homo sapiens with 11 samples.

Results

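The alpha- and beta-tubulin isotypes of Caki-1-SR cells were taken as the 10 genes TUBA1A, TUBA1B, TUBA1C, TUBA4A, TUBB, TUBB2A, TUBB2B, TUBB3, TUBB4B and TUBB6. They were found by symbol among the 26485 gene symbols of both count tables, 4 of them coding alpha- and 6 beta-tubulin. Caki-1 is a human clear cell renal cell carcinoma line derived from a skin metastasis, and Caki-1-SR is a sunitinib-resistant subline of it, kept in 1 µM sunitinib and described in the study as clone 1. Cells received the optimized drug combination ODC, made of Rapta-C (2 µM), erlotinib (1 µM), metformin (1 µM) and parthenolide (5 µM), or served as the control group CTRL, which the study calls untreated in one place and sham-treated with DMSO in another. All groups share this resistant subline. RNA of bulk cultures was sequenced after 24 h (3 CTRL and 3 ODC libraries) and after 2 h (2 CTRL and 3 ODC libraries).

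Microtubules are hollow polymers of alpha- and beta-tubulin heterodimers that build the mitotic spindle, carry intracellular transport and shape the cell. The isotypes differ mainly in their acidic C-terminal tails, which project from the polymer and are modified by enzymes. The tyrosine at the end of most alpha-tubulins is removed by vasohibins, which act with their partner SVBP, and by MATCAP1, and is put back by the ligase TTL. Parthenolide, 1 of the 4 drugs, is known as an inhibitor of tubulin detyrosination, and the level of soluble tubulin is known to feed back on the stability of tubulin mRNA through TTC5. These libraries measured mRNA only, so the tyrosination state of the protein is not part of the data.

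The ends of the coding regions of 8 isotypes are shown because they code for the C-terminal tails in which the isotypes differ, and because they show how little separates TUBB2A from TUBB2B. Each is the last 36 bases of the coding region, from the 5′ to the 3′ end on the coding strand, of the gene's MANE transcript in GENCODE 44 (hg38), and each lies within the last coding exon. Capitals mark the last codon and the stop codon.
TUBA1C (chr12:49273192-49273227, plus strand): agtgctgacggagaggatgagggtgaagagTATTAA
TUBA4A (chr2:219250352-219250387, minus strand): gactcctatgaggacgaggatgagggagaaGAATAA
TUBB (chr6:30724362-30724397, plus strand): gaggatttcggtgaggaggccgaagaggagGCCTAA
TUBB2A (chr6:3153863-3153898, minus strand): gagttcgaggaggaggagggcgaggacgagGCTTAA
TUBB2B (chr6:3224751-3224786, minus strand): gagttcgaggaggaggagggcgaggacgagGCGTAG
TUBB3 (chr16:89935769-89935804, plus strand): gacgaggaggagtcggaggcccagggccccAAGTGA
TUBB4B (chr9:137243521-137243556, plus strand): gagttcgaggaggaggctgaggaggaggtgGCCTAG
TUBB6 (chr18:12326095-12326130, plus strand): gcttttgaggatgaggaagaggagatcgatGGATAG

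TUBA1C ends on the tyrosine codon TAT, whereas TUBA4A ends on the glutamate codon GAA and so is made without the terminal tyrosine. The coding regions of TUBA1A and TUBA1B were 97.2% identical. The coding regions of TUBB2A and TUBB2B were 98.1% identical. The start of the coding region codes for the nascent peptide that TTC5 reads as it emerges from the ribosome, and its first 12 bases were ATGCGTGAGTGC in TUBA1B and ATGAGGGAAATC in TUBB.

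This likeness limits how well reads can be given to single isotypes. Of all 100-base windows in the MANE transcript, the read length used, 55.6% of TUBB2A and 48.7% of TUBB2B were also found elsewhere in the genome or in other transcripts, and 814 of these windows were shared by these 2 genes. The share was 37.2% for TUBA1B, 21.1% for TUBA1A and 12.3% for TUBA1C, 5.42% or less for TUBB, TUBB3 and TUBB4B, and 0 for TUBA4A and TUBB6. The setting used for reads with several matches is not given in the sources used here, so the values of TUBB2A, TUBB2B, TUBA1A, TUBA1B and TUBA1C carry this uncertainty. In GENCODE 44 every isotype also overlaps a gene on the opposite strand (TUBA1A and TUBA1C each other, for example), and the strand setting of the counting is likewise not given in the sources used here. TUBB3 lies within a read-through gene on its own strand, ENSG00000198211, which is not analysed here.

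Library totals were 17785229 to 20882856 counts at 24 h and 25782895 to 31118349 at 2 h. Levels are given as CPM, the usual unit of read counts relative to the library's total, with the SD over libraries. The total was scaled by the trimmed mean of M-values (TMM), separately within each time point. The floor of 3 counts per library, which covers counting error only, corresponded to 0.0964 to 0.116 CPM for the 2 h libraries and to 0.144 to 0.169 CPM for those of 24 h. The labels do not state that replicates came from separate cultures, so the p-values measure the spread between these libraries, which may be technical. The labels of the 2 h and 24 h libraries carry different months and do not say what was done then. A difference in level between time points therefore cannot be told apart from one between these sets of libraries. Of a list of renal carcinoma and epithelial markers, PAX8, KRT8, KRT18, CDH2 and VIM were counted in every group. PAX2 and CA9 were at or near 0 (0 to 4 counts per library). So were the leukocyte markers PTPRC and CD3E and the endothelial markers PECAM1 and CDH5. The leukocyte marker CD68 and the fibroblast marker COL1A1 had counts enough to be tested in each comparison.

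All 10 isotypes had counts in all 11 libraries and passed the filter on low counts in each comparison. TUBA1B, the alpha isotype of most dividing cells, made up most of the alpha-tubulin mRNA. Per kilobase of MANE transcript, it held 73.6% of the summed alpha-tubulin CPM in CTRL at 24 h, ahead of TUBA1C with 20.6%, TUBA4A with 5.58% and TUBA1A, the main neuronal alpha isotype, with 0.234%. This order was the same in all 4 groups, and the ranges of neighbouring isotypes did not overlap in any group. The beta isotypes were led by TUBB4B and TUBB, both broadly expressed, with 43.0% and 40.2% of the summed beta-tubulin CPM per kilobase in CTRL at 24 h. TUBB6 followed with 14.4%, then TUBB3, best known as the neuronal beta isotype and as a marker of taxane resistance, with 1.94%, TUBB2A with 0.384% and TUBB2B with 0.0175%. The order of the beta isotypes was also the same in the 4 groups. TUBB4B and TUBB were the only neighbours whose ranges overlapped, and they did so in both groups at 24 h.

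**Figure D1:**
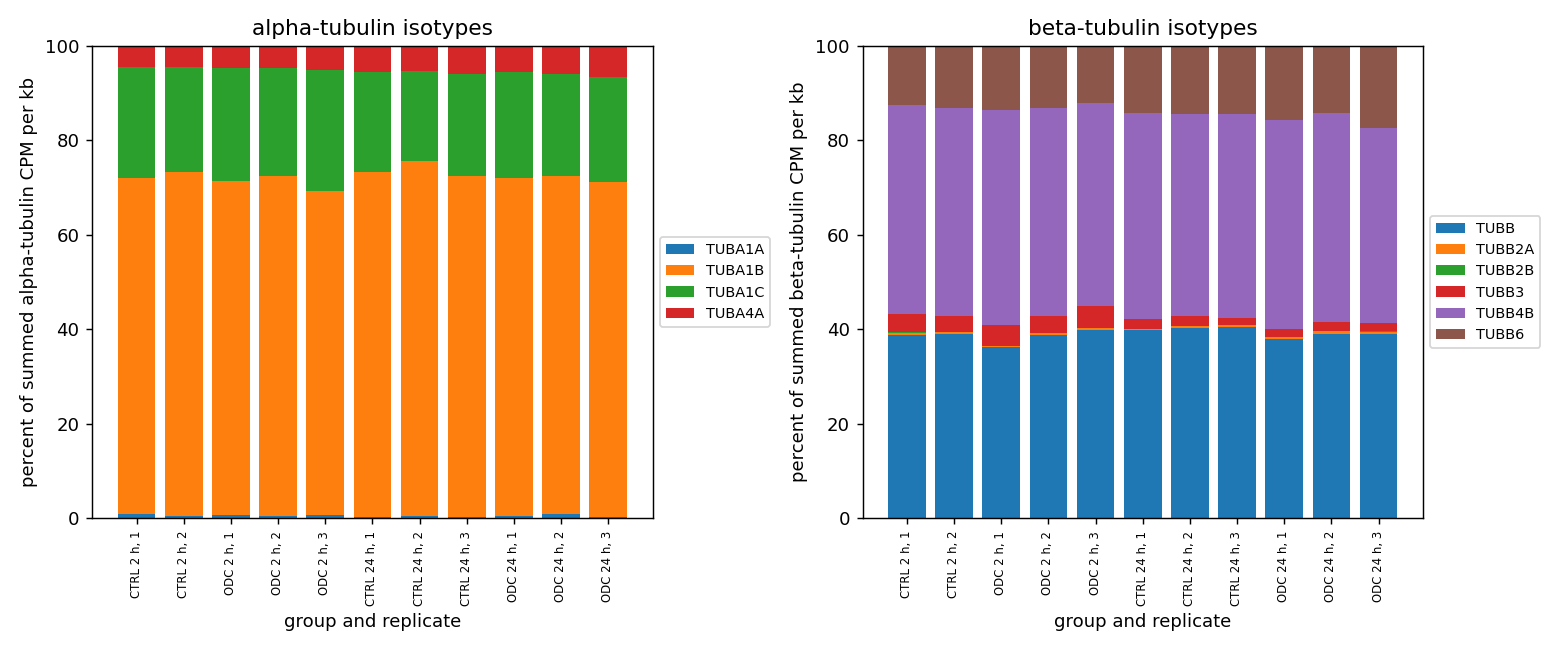
Shares of the alpha isotypes (left) and beta isotypes (right) in each library. Each stacked bar is 1 library, named by its group and replicate, and its segments are percentages of the family's summed CPM per kilobase of MANE transcript. TUBA1B takes the largest part of each alpha bar (73.6% on average in CTRL at 24 h), and TUBB4B and TUBB together take most of each beta bar.

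None of the 10 isotypes passed the adjusted threshold at 24 h without a replicate block, and their summed level was somewhat lower in ODC. Summed over the 10 genes, tubulin mRNA was 8140 ± 358 CPM (SD, n = 3) in CTRL, with libraries from 7809 to 8520, and 7432 ± 266 CPM (SD, n = 3) in ODC, with libraries from 7126 to 7609. The groups did not overlap in this sum, nor in the sum of the alpha isotypes (3691 to 4154 CPM in CTRL, 3332 to 3562 CPM in ODC). The sums of the beta isotypes overlapped (4089 to 4401 and 3791 to 4276 CPM). TUBA1B, the largest part of the alpha sum, had means of 2432 CPM in CTRL and 2069 CPM in ODC. Each other isotype overlapped between the groups, and TUBB6 had means of 583 and 597 CPM. No background was counted for such sums. Without TMM scaling the 10 genes took 0.794% to 0.849% of all counts in the CTRL libraries and 0.717% to 0.751% in the ODC libraries. In bulk RNA, fewer cells of a kind and less RNA in each cell cannot be told apart. At 2 h the sum was 7506 and 7550 CPM in CTRL and lay between 7402 and 7778 CPM in ODC, so the groups overlapped.

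In the quasi-likelihood test of edgeR, adjusted by Benjamini-Hochberg over 12689 genes, 0 of the 10 isotypes passed an adjusted p of 0.05 at 24 h, beside 0.189% of all genes tested. DESeq2 also called 0 of the 10, and edgeR with a replicate block of adjacent library numbers, which the labels do not state to be pairs, called 1, TUBA1A. At an unadjusted p under 0.05, edgeR placed 1 isotype lower in ODC and 0 higher, against backgrounds of 5.04% of genes lower and 7.20% higher, and DESeq2 placed 1 lower and 1 higher. TUBA1B was the only isotype whose ODC libraries all lay below the CTRL libraries, as 8.51% of all genes did.

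TUBA1B stood at 2601, 2409 and 2285 CPM in the CTRL libraries and at 2168, 2036 and 2002 CPM in the ODC libraries at 24 h. Each ODC library was below each CTRL library, and the means were 2432 ± 159 and 2069 ± 87.4 CPM (SD, n = 3 each). The log2 fold change was -0.23 (SE 0.0953, 95% interval -0.45 to -0.0135), with an adjusted p of 0.378 by edgeR. It therefore did not pass the test over all genes. Its share of alpha-tubulin mRNA was at 72.2% to 75.3% in CTRL and 70.9% to 71.7% in ODC, without overlap. This share is made from the same TUBA1B counts, which are also most of its divisor, so it adds no separate support. How often such shares lie without overlap was not counted. At 2 h TUBA1B was at 2190 and 2129 CPM in CTRL and at 2057, 2129 and 1901 CPM in ODC, a log2 fold change of -0.090 (95% interval -0.288 to 0.108).

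TUBA1A, far lower in level than TUBA1B, had the greatest fold change of the 10. Its CTRL libraries at 24 h were at 5.58, 11.2 and 6.81 CPM and its ODC libraries at 11.5, 21.9 and 8.51 CPM. The groups overlapped, since the second CTRL library lay above the third ODC library. The log2 fold change was 0.83 (SE 0.386, 95% interval -0.064 to 1.72), with an adjusted p of 0.449 by edgeR, and it was 0.34 without ODC replicate 2. With the replicate block of adjacent library numbers the log2 fold change was 0.79 and the adjusted p from edgeR 0.046, so that the call depended on the replicate block. At 2 h TUBA1A was at 24.7 and 10.3 CPM in CTRL and at 20.8, 11.6 and 20.6 CPM in ODC. The log2 fold change there was 0.014 (95% interval -0.838 to 0.866), and it moved to -0.47 without CTRL replicate 2 and to 0.78 without CTRL replicate 1.

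The other alpha isotypes differed less. TUBA1C was at 1184 ± 121 CPM in CTRL and 1109 ± 56 CPM in ODC at 24 h (SD, n = 3 each), a log2 fold change of -0.094 (95% interval -0.337 to 0.149). TUBA4A, the isotype without a coded terminal tyrosine, was at 232 ± 17.8 and 218 ± 10.4 CPM, a log2 fold change of -0.089 (95% interval -0.308 to 0.130). Both pairs of groups overlapped. At these intervals a 2-fold change of either gene lay outside the range.

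**Figure D2:**
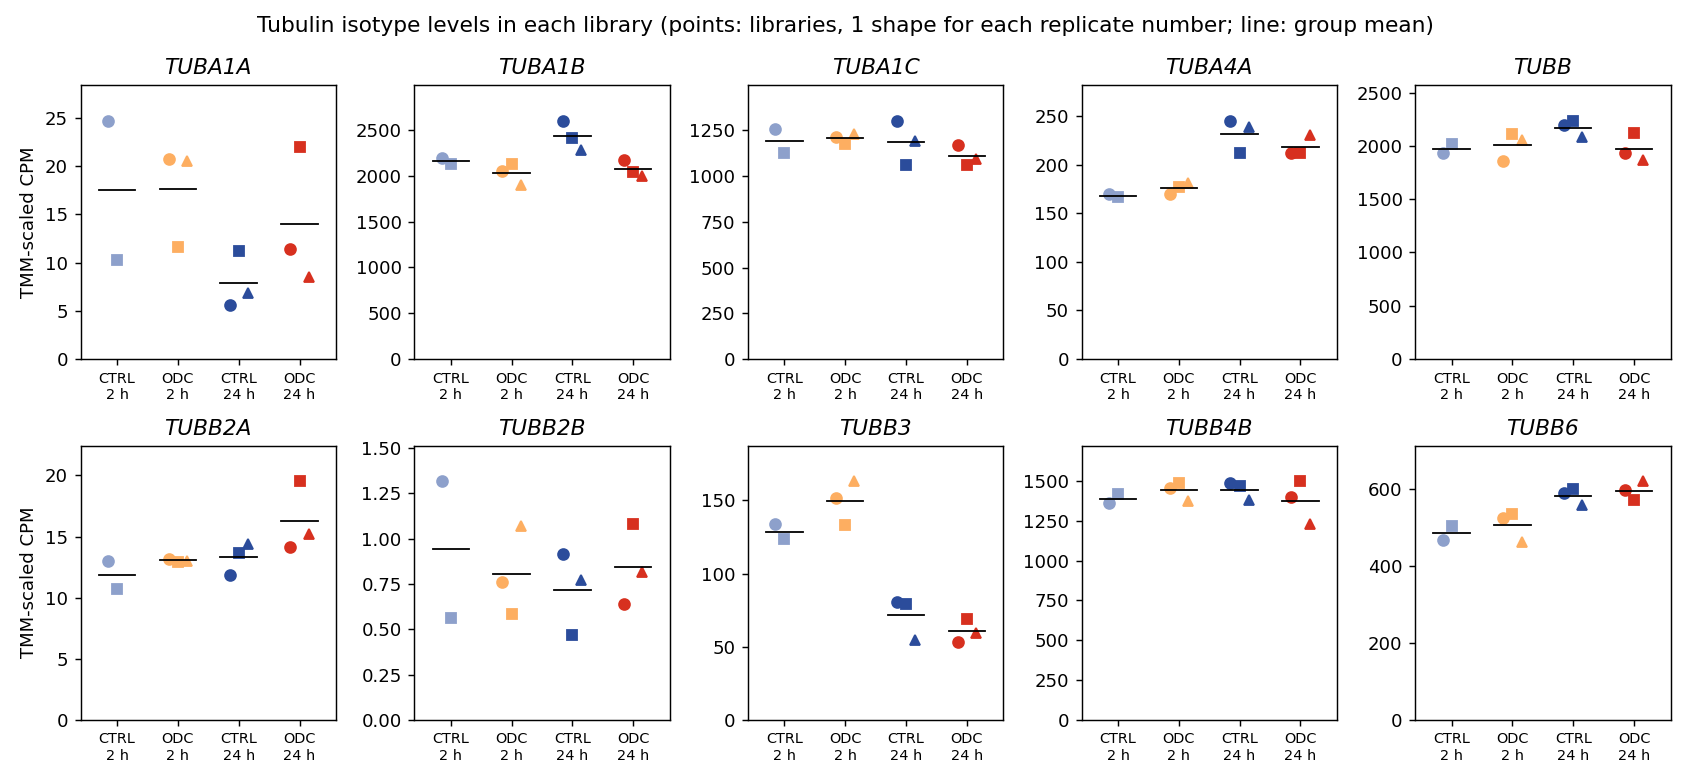
TMM-scaled CPM of each isotype in each library, on axes that start at 0 and differ between panels. Points are libraries, shapes mark replicate numbers within a group, and lines are group means. At 24 h the ODC points lie below all CTRL points for TUBA1B and for no other isotype, and the spread between replicates is wide for TUBA1A and TUBB2B.

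Among the beta isotypes, TUBB stood at 2193, 2237 and 2081 CPM in CTRL and at 1932, 2117 and 1867 CPM in ODC at 24 h. The groups overlapped through the second ODC library, and the log2 fold change was -0.14 (95% interval -0.356 to 0.079, edgeR adjusted p = 0.616). Its share of beta-tubulin mRNA was 39.75% to 40.39% in CTRL and 37.97% to 39.02% in ODC, without overlap. This share is made from the same TUBB counts, and no background was counted for it. TUBB4B, at 1446 ± 58.7 and 1376 ± 137 CPM (SD, n = 3 each), had a log2 fold change of -0.072 (95% interval -0.311 to 0.167). TUBB6, at 583 ± 21.8 and 597 ± 24.4 CPM (SD, n = 3 each), had one of 0.034 (95% interval -0.163 to 0.230). For TUBB, TUBB4B and TUBB6, as for TUBA1B, TUBA1C and TUBA4A, the 95% interval lay within 0.5 of 0 on the log2 scale.

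TUBB2A, which is abundant in brain, was at 11.9, 13.7 and 14.4 CPM in CTRL and at 14.2, 19.5 and 15.2 CPM in ODC at 24 h. The highest CTRL library lay just above the lowest ODC library, and the log2 fold change was 0.29 (95% interval -0.083 to 0.665, edgeR adjusted p = 0.530). TUBB2B, the near-identical neighbour of TUBB2A, had 9 to 19 counts in the CTRL and 13 to 20 in the ODC libraries. Its log2 fold change of 0.22 had a 95% interval from -0.62 to 1.07, which includes a rise of 2-fold but not a fall of 2-fold.

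TUBB3 was at 80.5, 79.3 and 54.7 CPM in CTRL and at 53.3, 68.6 and 59.6 CPM in ODC at 24 h, with overlap through the third CTRL library. The log2 fold change was -0.24 (95% interval -0.63 to 0.14, edgeR adjusted p = 0.621). At 2 h it was at 133.7 and 123.5 CPM in CTRL and at 151.6, 133.5 and 163 CPM in ODC, with 1 ODC library just below the higher CTRL library and a log2 fold change of 0.22 (95% interval -0.032 to 0.465). Its level in CTRL was thus 129 ± 7.21 CPM (SD, n = 2) at 2 h and 71.5 ± 14.6 CPM (SD, n = 3) at 24 h, and its share of beta-tubulin mRNA 3.74% and 1.94%. TUBA4A was lower in CTRL at 2 h (168 ± 1.91 CPM, SD, n = 2) than at 24 h (232 ± 17.8 CPM, SD, n = 3), while the CTRL libraries of TUBA1A overlapped between the times. These differences lie between sets of libraries that carry different months and were scaled separately, as well as between times.

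**Figure D3:**
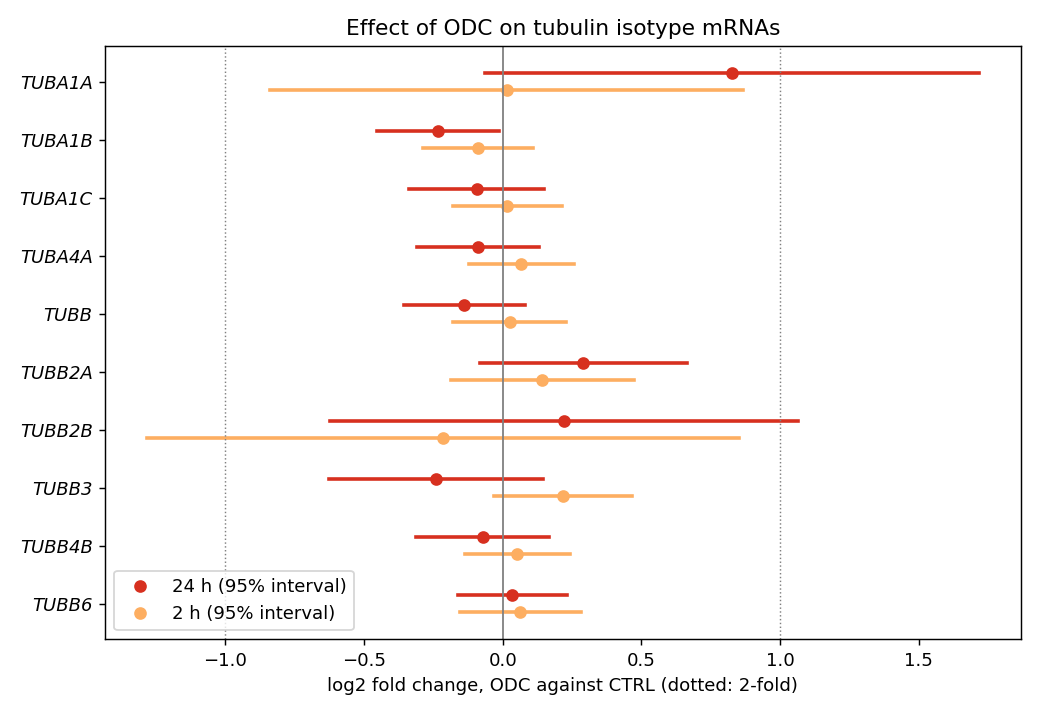
Log2 fold change of each isotype, ODC against CTRL, at 24 h (red) and 2 h (orange), with points for the edgeR estimate and lines for its 95% interval. The interval includes 0 for every isotype at both times except TUBA1B at 24 h, and it is widest for TUBA1A and TUBB2B.

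After 2 h, 0 of the 10 isotypes passed an adjusted p of 0.05 by edgeR, as 0% of the 13332 genes tested did. At an unadjusted p under 0.05, edgeR and DESeq2 both placed 0 isotypes higher and 0 lower, with edgeR backgrounds of 1.47% higher and 0.870% lower. The log2 fold changes lay between -0.22 (TUBB2B) and 0.22 (TUBB3). TUBA4A was the only isotype whose groups did not overlap with ODC higher, at 169.5 and 166.8 CPM in CTRL and 170.1, 177.2 and 181 CPM in ODC, as 7.89% of all genes did, and its log2 fold change was 0.067 (95% interval -0.123 to 0.257).

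Whether ODC acted differently at the 2 time points was tested as the difference of the log2 fold changes in 1 fit of all 11 libraries. Of the 10 isotypes 0 passed an adjusted p of 0.05 by edgeR, beside 0.0150% of 13333 genes. At an unadjusted p under 0.05, 0 were higher and 0 lower at 24 h than at 2 h, with backgrounds of 3.17% and 2.77%. TUBB3 came nearest, with its log2 fold change lower at 24 h by a difference of -0.48 (SE 0.221, 95% interval -0.96 to 0.0087, edgeR adjusted p = 0.858). For TUBA1A the difference was 0.79 (95% interval -0.53 to 2.11).

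The genes that act on the tubulins were counted in lists by role, and no gene of any list passed an adjusted p of 0.05 by edgeR at either time or in the difference. TTL, the ligase that restores the terminal tyrosine, was at 207 ± 20.9 CPM in CTRL and 223 ± 11.9 CPM in ODC at 24 h (SD, n = 3 each), a log2 fold change of 0.11 (95% interval -0.133 to 0.346). SVBP, the partner of the vasohibins, was at 7.54 ± 0.547 and 5.78 ± 0.706 CPM, with each ODC library below each CTRL library, as in 8.51% of all genes. Its log2 fold change was -0.38 (95% interval -0.766 to 0.000317, edgeR adjusted p = 0.409). VASH1 and VASH2, the vasohibins, had 4 to 12 and 0 to 8 counts per library at 24 h and were not tested there. MATCAP1, listed under its older symbol KIAA0895L, had a log2 fold change of -0.068. At 2 h all 5 of these genes were tested, with 0 called at an unadjusted p under 0.05 in either direction.

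Of 9 tested genes of tubulin mRNA autoregulation, made up of TTC5, SCAPER and CCR4-NOT subunits, 0 had an unadjusted p under 0.05 at 24 h. The median log2 fold change was -0.040, beside 0.00089 over all genes. TTC5 itself was at 12.9 ± 0.78 CPM in CTRL and 11.3 ± 1.02 CPM in ODC (SD, n = 3 each).

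Of 21 genes of tubulin folding (the CCT chaperonin, prefoldin and the tubulin cofactors), 17 had a negative log2 fold change at 24 h. The median was -0.103, beside 0.00089 over all genes, and the share of all genes with a negative sign was not counted. At an unadjusted p under 0.05, 1 was lower, the cofactor TBCC (log2 fold change -0.38, edgeR adjusted p = 0.270), and 0 were higher. Of 13 genes of the gamma-, delta- and epsilon-tubulins and the gamma-tubulin ring complex, which nucleates microtubules, 3 were lower at that level and 0 higher, with a median of -0.18. These were TUBE1, coding epsilon-tubulin of the centriole (log2 fold change -0.70, edgeR adjusted p = 0.147), TUBGCP4 (-0.23) and NEDD1 (-0.23).

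Among 17 tested genes of other tubulin modifications, 2 were higher and 0 lower at an unadjusted p under 0.05, with a median of 0.080. SIRT2, a deacetylase of alpha-tubulin, was at 19.8 ± 0.497 CPM in CTRL and 29.9 ± 3.55 CPM in ODC (SD, n = 3 each), a log2 fold change of 0.59 (SE 0.124, edgeR adjusted p = 0.118). TTLL7, a polyglutamylase that prefers beta-tubulin tails, had one of 0.41. Of 18 microtubule-associated and plus-end proteins 3 were higher (MAPRE3 0.78, MAP1A 1.35 and CLIP1 0.31 on the log2 scale) and 1 lower (MAP2 -0.63, named after its values were seen), with a median of 0.074. Of 13 severing and depolymerising factors 0 were higher and 2 lower (FIGNL1 -0.29 and KIF2A -0.22), with a median of -0.117. At 24 h the counts of all lists by role stand beside the same backgrounds of 7.20% of all genes higher and 5.04% lower. The lists are given as a description only.

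Among 8 other alpha- and beta-tubulin genes, TUBA8 alone passed the filter on low counts at 24 h. It was at 2.29 ± 0.974 CPM in CTRL and 4.63 ± 2.36 CPM in ODC (SD, n = 3 each), a log2 fold change of 1.01 (95% interval -0.072 to 2.09) with overlapping groups. At 2 h, 3 of 99 tested genes of the lists by role were higher in ODC at an unadjusted p under 0.05 and 0 lower, beside 1.47% and 0.870% of all genes, and the 3 are named here after their values were seen. They were MZT2A (0.48) and MZT2B (0.57) of the gamma-tubulin ring complex, close copies whose reads may be split between them, and TPGS1 (0.91), a subunit of the tubulin polyglutamylase complex, each with an adjusted p of 1 by edgeR. In the difference between times, 2 of 98 tested genes were higher at that level and 6 lower, beside 3.17% and 2.77% of all genes. The higher ones were SIRT2 (0.52) and MAP7D2, which had 0 to 8 counts per library at 24 h, and the lower ones were 3 folding genes (PFDN2, TBCB and TBCC), 2 ring-complex genes (MZT2A and NEDD1) and MAP2, named here after their values were seen.

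**Figure D4:**
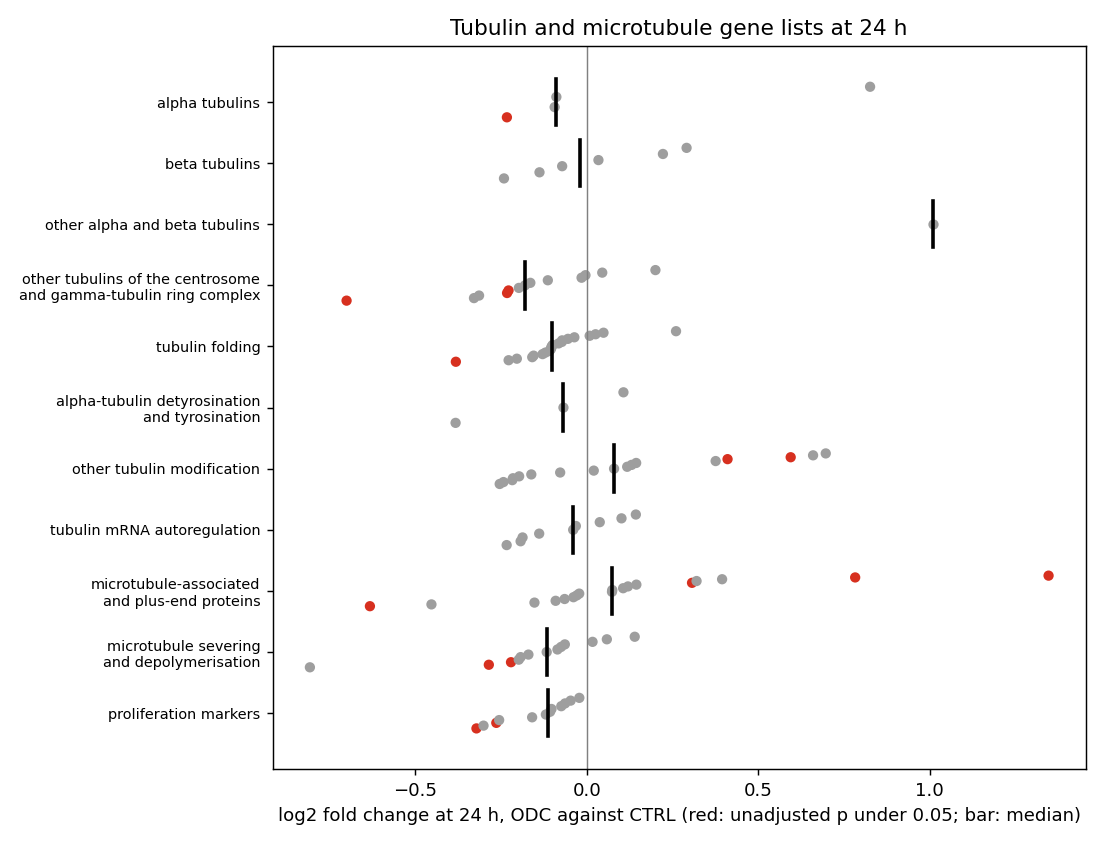
Log2 fold changes at 24 h, ODC against CTRL, for the genes of each list. Points are genes, red where the unadjusted edgeR p is under 0.05, and black bars are list medians. The medians are -0.0914 for the alpha and -0.0191 for the beta isotypes, -0.18 for the gamma-, delta- and epsilon-tubulins with the ring complex, and 1.01 for the other alpha- and beta-tubulins, where TUBA8 is the single gene, and TUBA1B is the red point among the alpha tubulins.

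Tubulin mRNA is known to follow the cell cycle, so 12 proliferation markers were set beside it. All 12 had a negative log2 fold change at 24 h, with a median of -0.113 beside 0.00089 over all genes. At an unadjusted edgeR p under 0.05, 2 were lower, CDK1 (-0.32) and AURKB (-0.26), and 0 were higher. Over all genes 5.04% were lower and 7.20% higher at that level. The summed level of the 12 markers was 3051 to 3259 CPM in CTRL and 2566 to 3158 CPM in ODC at 24 h. At 2 h it was 3187 to 3331 and 3061 to 3225 CPM. Of the list of renal carcinoma and epithelial markers, KRT8 (-0.62), KRT18 (-0.71) and VIM (-0.27) also had negative log2 fold changes at 24 h with unadjusted edgeR p-values under 0.05. They were 3 of the 5 tested markers of their list, beside the same 5.04% of all genes. The other tested markers were at 0.33 (PAX8) and -0.017 (CDH2). The part of these genes in the lower tubulin sum was not tested. EPCAM, an epithelial marker, was low, with 5 to 10 counts per library at 24 h, and at 2 h stood at 3.87 and 0.812 CPM in CTRL and 0.656 to 0.874 CPM in ODC, with overlap (log2 fold change -1.66, edgeR adjusted p = 1). At 24 h the fibroblast and pericyte marker PDGFRB had a log2 fold change of 1.00 (95% interval -0.076 to 2.07). COL1A1 had one of 0.14 with overlapping groups. CD68 had one of 0.34 (95% interval -0.0073 to 0.681), with each ODC library above each CTRL library, as in 9.42% of all genes. The 7 markers of other cell types summed to 72.2 to 148 CPM in CTRL and 123 to 176 CPM in ODC.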

How the data were processed

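The authors prepared stranded mRNA libraries (TruSeq), sequenced them as 100-base single reads, aligned them to hg38 with STAR, version 2.7.0f in the submitters' processing notes, and used HTSeq 0.9.1 for counting. The deposited values are raw read counts for each gene symbol, in 1 table for each time point. Groups came from the sample labels. Counts were tested with edgeR 4.0.16 (TMM, filterByExpr with a minimum count of 10 and total of 15, the earlier quasi-likelihood method, two-sided, Benjamini-Hochberg adjustment) within each time point, and in 1 fit of all 11 libraries for the difference. The biological coefficient of variation was 0.166 at 24 h and 0.139 at 2 h. The steps were tested on simulated counts. At an adjusted p under 0.05, edgeR recovered 76 of 100 simulated 2-fold changes at 24 h and 88 of 100 at 2 h. For the difference between times it recovered 47 of 100, so a 2-fold difference there could often be missed. Shares used the lengths of MANE transcripts in GENCODE 44. Alternatives were RLE scaling, library size only, no filter, DESeq2 1.42.0, the newer edgeR method, a joint fit, a replicate block and leaving out each library. At 24 h the library numbers alternated between CTRL and ODC, so the replicate block joined a CTRL and an ODC library with adjacent numbers. The libraries joined in this way deviated together (correlations of 0.27, 0.63 and 0.49), but the labels state no pairs. The isotypes and lists were chosen with earlier results of these data known. Named genes were the 10 isotypes, the tyrosination genes and TTC5, and up to 3 genes of every other list with the smallest p at 24 h. The coding ends of TUBA1A and TUBA1B are not reported here.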

Additional observations from a re-analysis of the deposited data

How the results depend on the processing

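The number of genes with an adjusted p under 0.05 at 24 h was 24 by edgeR and depended on the method. It was 92 with every gene that had at least 1 count, 186 in the joint fit, 386 with DESeq2 and 686 with the replicate block of adjacent library numbers, and 2 to 70 when 1 library was left out. Of the isotypes, 0 passed except 1 (TUBA1A) under the block. Isotypes with an unadjusted p under 0.05 numbered 1 higher with every gene, DESeq2 or the block (0 to 1 when 1 library was left out), and 0 lower with the newer edgeR method (0 to 2 when 1 library was left out). At 2 h DESeq2 called 1 gene, leaving out 1 library gave 0 to 42, the 42 without CTRL replicate 2, and 0 to 1 isotypes were higher at the unadjusted threshold. For the difference, 7 genes passed with every gene, 36 with DESeq2 and 0 to 4 when 1 library was left out, against 2, and 1 isotype was lower at the unadjusted threshold with library size only or with every gene (0 to 1 when 1 library was left out).

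Some alternatives turned the sign of log2 fold changes that no fit called at an adjusted p under 0.05. The ranges over all alternatives were -0.00776 to 0.429 for TUBB2B and -0.143 to 0.00256 for TUBB4B at 24 h. At 2 h they were -0.471 to 0.777 for TUBA1A, -0.0417 to 0.0953 for TUBA1C, -0.0134 to 0.076 for TUBB and -0.695 to 0.505 for TUBB2B. For the difference they were -0.0155 to 0.25 for TUBB2A, -0.292 to 0.9 for TUBB2B and -0.115 to 0.0134 for TUBB6. Of 130 values of single isotypes at 24 h 127 kept their direction and side of the threshold, as did 103 of 110 at 2 h and 156 of 160 for the difference. In CTRL at 24 h the share of TUBA1B was 67.3% and that of TUBA1C 26.3% of alpha-tubulin with the length of all annotated exons, which put TUBB at 37.9% and TUBB4B at 50.5% of beta-tubulin. With the length found nowhere else, an alternative chosen after seeing the data, TUBA1B was at 80.3% and TUBA1C at 15.7%. The causes were not tested. With 2 or 3 libraries a group, intervals of the low isotypes TUBA1A and TUBB2B remained wide.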
